A study of Mus musculus with 6 samples.

Results

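Grsf1 encodes a G-rich RNA-binding protein of mitochondrial RNA granules, and the genes described with it encode other proteins that make, process or stabilise mitochondrial transcripts. The group comprised 10 genes, chosen by their functions around Grsf1, which was itself selected on its log2 difference between the treatments compared here. They were Grsf1, the FAST kinase family genes Fastk, Fastkd1, Fastkd2, Fastkd3 and Fastkd5, the nucleoid and transcription genes Tfam and Polrmt, and Lrpprc and Slirp. Of the 10 genes, 9 were measured among 19937 genes with a probe set assigned to a single gene. The only probe set of Fastkd5 is also assigned to Ubox5, so no value is given for Fastkd5, which in human cells is needed to process some of the precursors that lack flanking tRNAs. Each of the other 9 had 1 such probe set.

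The mitochondrial genome is transcribed into long strands that are cut into separate RNAs. Much of this processing takes place in RNA granules beside the nucleoids, the protein-coated copies of mitochondrial DNA, and the mature RNAs are stabilised and translated by proteins imported from the cytosol. All of these proteins are encoded in the nucleus, so the cell can set their transcript levels independently of the mitochondrial transcripts they act on. Embryonic stem cells have immature mitochondria and rely strongly on glycolysis.

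The arrays held RNA of mouse embryonic stem cells of 1 line, a V6.5 derivative with a biotin-acceptor and 3xFLAG tag knocked into Ctnnb1, the β-catenin gene, together with the biotin ligase BirA. Both treatments therefore used tagged cells, grown in serum and LIF on feeder cells from DR4 mice. For 24 h, the cells of 3 arrays received CHIR99021 at 3 µM, which inhibits the kinase GSK3 and so raises β-catenin, and the cells of the other 3 arrays received XAV939, which inhibits tankyrase and so lowers β-catenin. The XAV939 dose is 3 µM in the sample labels and 1 µM in the treatment protocol. No untreated arrays were analysed here, so a difference cannot be assigned to either compound. Whether the replicates came from separate cultures is not stated in the labels, so the p-values measure the spread between these arrays, which may be technical.

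Array medians lay between 5.67 and 5.71 on the log2 scale, and arrays of the same treatment correlated at 0.997 to 0.999 across genes. The array weights of limma, used in an alternative fit, ran from 0.38 to 1.87. The β-catenin target Axin2 had log2 values of 7.48, 7.41 and 7.54 with CHIR99021, against 5.46, 5.79 and 5.46 with XAV939, and was higher on every CHIR99021 array. All 10 embryonic stem cell markers, among them Pou5f1, Sox2 and Nanog, exceeded the median of the probe set means (5.68). At an adjusted p of 0.05 in limma's test, 3 of them, Nanog, Esrrb and Zfp42, were higher with CHIR99021. Another 4, Utf1, Tdgf1, Sall4 and Lin28a, were lower, and Pou5f1, Sox2 and Dppa5a did not pass. Of all genes, 5.31% were higher and 4.34% lower by that test. The summed linear signal of the 10 markers was 20979 to 21506 on the CHIR99021 arrays and 23237 to 23807 on the XAV939 arrays. Of 14 fibroblast markers, which feeder cells could contribute, 9 exceeded the median level. Of the 14, 7 were higher with CHIR99021, led by Col1a1 (1.05 ± 0.05, SE of the limma fit), and the other 7, Col3a1, Thy1, Postn, Lum, Dcn, Pdgfra and Fap, did not pass. Their summed linear signal was 3010 to 3296 on the CHIR99021 arrays and 2163 to 2231 on the XAV939 arrays. Tagln and Acta2 made up 63.3% to 64.9% of this sum with CHIR99021 and 61.3% to 64.0% with XAV939. The other 12 markers summed to 1104 to 1156 with CHIR99021 and 779 to 858 with XAV939. RMA values have no true 0. Fewer cells of a type and less RNA per cell cannot be told apart in such bulk samples, and the part of feeder RNA in the results given here was not tested.

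The 250 bases before the annotated start are shown for the members in which this stretch overlaps no gene of the RefSeq table (GRCm38.p6): Grsf1, which carries the largest difference of the group, Fastkd1, a partner that passed the test, and Lrpprc, a partner that did not. All are on the minus strand and are written 5′ to 3′ in the direction of the gene, with capitals marking matches to the motif letters given after them.
Grsf1, chr5:88676172-88676421: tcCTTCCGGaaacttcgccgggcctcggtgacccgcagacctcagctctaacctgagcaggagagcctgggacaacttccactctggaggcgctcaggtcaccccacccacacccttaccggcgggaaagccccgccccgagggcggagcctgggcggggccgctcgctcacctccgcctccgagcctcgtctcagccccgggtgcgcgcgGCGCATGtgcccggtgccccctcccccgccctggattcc
Fastkd1, chr2:69712607-69712856: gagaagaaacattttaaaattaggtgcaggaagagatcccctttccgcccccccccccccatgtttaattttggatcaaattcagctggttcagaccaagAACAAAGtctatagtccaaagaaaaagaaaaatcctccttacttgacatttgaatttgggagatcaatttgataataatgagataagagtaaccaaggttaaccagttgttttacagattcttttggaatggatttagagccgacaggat
Lrpprc, chr17:84790787-84791036: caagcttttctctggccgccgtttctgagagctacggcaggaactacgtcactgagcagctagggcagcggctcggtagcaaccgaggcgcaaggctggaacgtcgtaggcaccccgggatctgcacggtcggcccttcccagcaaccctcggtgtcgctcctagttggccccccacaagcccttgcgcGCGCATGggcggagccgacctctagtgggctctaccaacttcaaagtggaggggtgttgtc
The letters searched, on both strands, were CTTTGAT and CTTTGTT for TCF/LEF factors, which bind DNA with β-catenin, CCGGAAG for ETS factors such as GABP, GCGCATG and GCGCACG for the core of the NRF1 site, and CACGTG for E-box factors. GABP and NRF1 are known activators of nuclear genes for mitochondrial proteins. The letters did not overlap one another in the stretches shown.

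The windows used for counting ran from 250 bases before to 50 after each start, and Grsf1 had a further annotated start. Neither Grsf1 window held CTTTGAT or CTTTGTT, which were present in 3.73% and 5.85% of all 32851 windows. The window of the β-catenin target Axin2 held neither of them as well. Binding of TCF/LEF factors was not tested. The first Grsf1 window held 1 match to CCGGAAG, read on the opposite strand near the far end of the stretch, and 1 match to GCGCATG close to the start. This ETS motif was found for 6 of the 10 genes, Grsf1, Fastk, Fastkd5, Tfam, Polrmt and Slirp. By window, it was in 6 of their 11 windows and in 8.86% of all windows. CTTTGTT was found for Fastkd1 and CTTTGAT for Polrmt. GCGCATG was found for Grsf1, Polrmt and Lrpprc (3.91% of all windows), GCGCACG for Grsf1, Fastk, Fastkd3 and Polrmt (4.92%) and CACGTG for Fastkd1 (7.15%). The ratio of observed to expected CpG dinucleotides was 0.814 and 1.14 in the Grsf1 windows and 0.292 in the Fastkd1 window, against a median of 0.384 over all windows, so the promoters of these members are of different base composition. Fastkd1 had the lowest ratio of the members, and the highest was 1.148. The ETS, NRF1 and E-box letters contain a CpG, and their shares were not taken over windows of like CpG ratio.

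Grsf1 was the member that stood apart between the treatments. The gene lies on the minus strand at chr5:88659233-88676171 (GRCm38.p6), and its protein binds G-rich stretches of mitochondrial transcripts and takes part in their processing. Its log2 values were 11.00, 11.03 and 11.09 on the CHIR99021 arrays, against 9.37, 9.40 and 9.52 on the XAV939 arrays. All CHIR99021 arrays lay above all XAV939 arrays, and the lowest of them exceeded the highest XAV939 array by 1.48. The means were 11.04 ± 0.05 with CHIR99021 and 9.43 ± 0.08 with XAV939 (SD, n = 3 each), a log2 difference of 1.61 ± 0.06 (SE) or 3.06-fold. Grsf1 was chosen for this difference, so it is given as a description with no test. Among all genes it ranked 10th in the upward direction, and 50 genes had a log2 difference of at least 1. With any 1 array left out the difference lay between 1.58 and 1.66. The probe set summarises the gene as a whole, so transcripts from its annotated starts were not resolved.

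**Figure D1:**
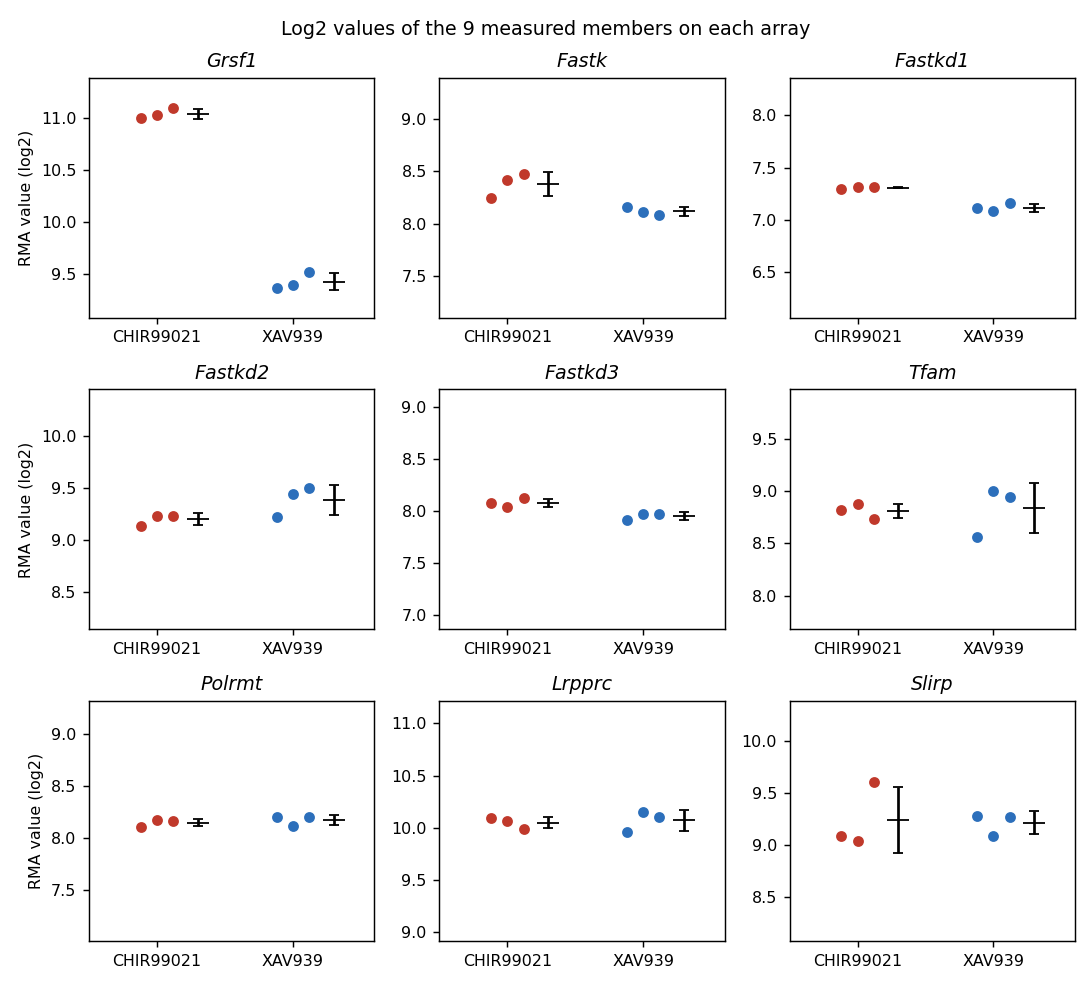
Log2 RMA values of the 9 measured members, 1 panel per gene. Points are single arrays in replicate order, CHIR99021 at left and XAV939 at right, bars give mean and SD (n = 3), and each panel spans the same number of log2 units around the gene's own mean. Grsf1 is at 11.00 to 11.09 with CHIR99021 and 9.37 to 9.52 with XAV939, whereas the CHIR99021 and XAV939 points of the other genes lie close together.

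The other measured members were 8 genes named for their function, although with earlier results of these data known. Of these, 2 rose with CHIR99021, none fell and 6 did not pass limma's test at an adjusted p of 0.05, where 9.65% of all genes passed (5.31% higher and 4.34% lower). At an unadjusted p under 0.05, 4 of the 8 were counted, 3 higher and 1 lower, against 20.6% of all genes. Their differences were small beside that of Grsf1. The median log2 difference was 0.0017, against 0.0066 over all genes, with 4 members above 0 and 4 below. Regardless of sign, the median over all genes was 0.062. By size of difference, Fastk, Fastkd1, Fastkd2 and Fastkd3 were at the 91.7, 86.4, 85.5 and 75.1 percentiles of all genes. Tfam, Polrmt, Lrpprc and Slirp were at 22.3 to 25.8. The values ran from -0.19 to 0.26, and 95% intervals reached no higher than 0.41 and no lower than -0.35. The treatments did not overlap for 3 of the 8 genes, in each case with CHIR99021 higher, as for 14.1% of all genes (25.1% in either direction).

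Among the FAST kinase family, RNA-binding proteins with a shared C-terminal RAP domain, Fastk and Fastkd1 rose. Fastk, the founding member, of which a mitochondrial form is needed for the ND6 mRNA, had log2 values of 8.25, 8.42 and 8.47 with CHIR99021, against 8.16, 8.11 and 8.08 with XAV939. The treatments did not overlap, with the first CHIR99021 array only 0.086 above the highest XAV939 array. The difference was 0.26 ± 0.07 (SE), or 1.20-fold (limma adjusted p = 0.0305). The call was lost without CHIR99021 replicate 2 (adjusted p = 0.126), without CHIR99021 replicate 3 (0.106) and without XAV939 replicate 2 or 3 (0.0912 and 0.108).

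Fastkd1, a family member whose loss alters mitochondrial mRNA levels in human cells, had log2 values of 7.30, 7.32 and 7.31 with CHIR99021, against 7.11, 7.08 and 7.16 with XAV939. Its replicates were close, with an SD of 0.0085 and 0.039, and the treatments were 0.14 apart at their nearest. The difference was 0.19 ± 0.05 (SE), or 1.14-fold (limma adjusted p = 0.0364). The call was lost when any CHIR99021 array was left out (adjusted p = 0.0839 to 0.134) and without XAV939 replicate 2 or 3 (0.138 and 0.0609). The 7 fibroblast markers that passed differed in the same direction as Grsf1, Fastk and Fastkd1, and the other 7 did not pass.

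Fastkd2, which binds the large mitochondrial rRNA and is needed for assembly of the mitochondrial ribosome, had the most negative difference of the group. Its log2 values were 9.14, 9.23 and 9.24 with CHIR99021, against 9.22, 9.44 and 9.50 with XAV939. XAV939 replicate 1 lay within the range of the CHIR99021 arrays, and the other XAV939 arrays lay above it. The difference was -0.19 ± 0.07 (SE) and did not pass (limma adjusted p = 0.178). It was -0.27 with adjusted p = 0.0156 without XAV939 replicate 1, and -0.13 (0.454) without XAV939 replicate 3.

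Fastkd3, implicated in the translation and stability of respiratory chain mRNAs in human cells, had log2 values of 8.08, 8.04 and 8.12 with CHIR99021, against 7.91, 7.97 and 7.98 with XAV939. All CHIR99021 arrays were higher, but by 0.060 at the nearest, and the difference of 0.13 ± 0.05 (SE) did not pass (limma adjusted p = 0.201). Its interval ran from 0.0094 to 0.24.

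Of the nucleoid and transcription members, neither passed. Tfam, which packages mitochondrial DNA and activates its transcription, had log2 values of 8.82, 8.88 and 8.74 with CHIR99021, against 8.56, 9.003 and 8.95 with XAV939. XAV939 replicate 1 was the lowest array and the other XAV939 arrays were the highest, so the CHIR99021 arrays lay inside the range of the XAV939 arrays. The difference was -0.028 ± 0.102 (SE, 95% interval -0.26 to 0.20, limma adjusted p = 0.938). Without XAV939 replicate 1 it was -0.17 (adjusted p = 0.121), without XAV939 replicate 2 it was 0.054 (0.878), without XAV939 replicate 3 it was 0.026 (0.952) and without CHIR99021 replicate 3 it was 0.0088 (0.985).

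Polrmt, the RNA polymerase of mitochondria, had log2 values of 8.11, 8.17 and 8.16 with CHIR99021, against 8.20, 8.12 and 8.21 with XAV939. The treatments overlapped, and the difference of -0.029 ± 0.053 (SE) had a 95% interval of -0.15 to 0.088 (limma adjusted p = 0.853).

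Lrpprc and Slirp encode a complex that stabilises mitochondrial mRNAs and supports their polyadenylation. Lrpprc had log2 values of 10.09, 10.07 and 9.99 with CHIR99021, against 9.96, 10.15 and 10.11 with XAV939. The treatments overlapped, with a difference of -0.025 ± 0.064 (SE, 95% interval -0.17 to 0.12, limma adjusted p = 0.906). It was 0.015 without XAV939 replicate 2, 0.0064 without CHIR99021 replicate 3 and -0.081 without XAV939 replicate 1.

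Slirp, the smaller partner in this complex, had log2 values of 9.08, 9.04 and 9.61 with CHIR99021, against 9.28, 9.09 and 9.27 with XAV939. CHIR99021 replicate 3 was the highest of all arrays, while the other CHIR99021 arrays were the lowest. The difference was 0.028 ± 0.130 (SE, 95% interval -0.26 to 0.32, limma adjusted p = 0.952), with a standard error above the median of 0.061 over all genes. Its sign changed without CHIR99021 replicate 3 (-0.15, adjusted p = 0.312), without XAV939 replicate 2 (-0.035) and with array weights (-0.034).

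**Figure D2:**
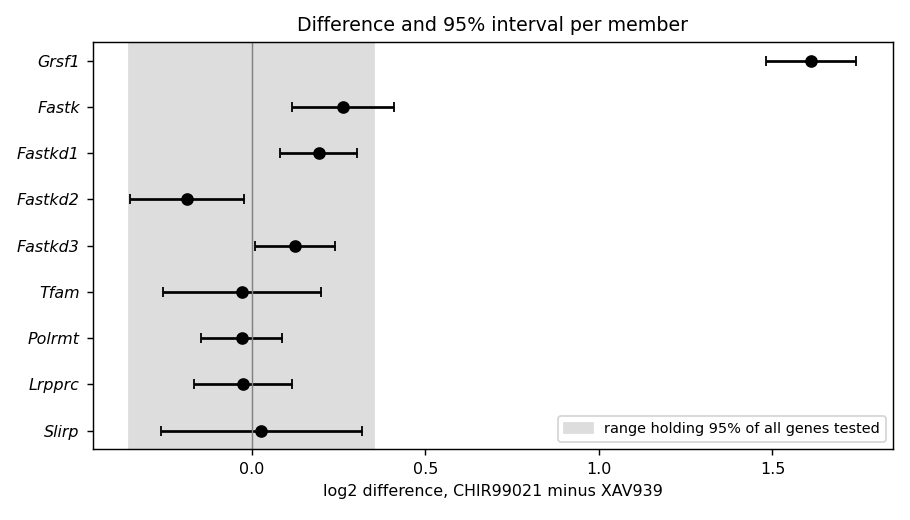
Log2 difference, CHIR99021 minus XAV939, of the 9 measured members (points) with the 95% interval of the limma fit (bars). The grey band holds 95% of all genes tested. Grsf1 lies at 1.61, outside the band, and the other members lie between -0.19 and 0.26, inside it.

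The remaining machinery, its regulators, and relatives and an mRNA partner of GRSF1 were examined with 6 lists of nuclear genes. The lists were chosen with earlier results of these data known and held 168 measured genes, excluding the 10 members. Of the 168 genes, 2 were higher, 3 were lower and 163 did not pass, so 2.98% passed against 9.65% of all genes. Their median log2 difference was -0.0080. By list, the share that passed ran from 0% (77 mitochondrial ribosomal protein genes and 19 nucleoid genes) to 28.6% (7 relatives and mRNA partner of GRSF1). The 3 lower genes were in the lists of biogenesis regulators and of GRSF1 relatives and mRNA partner. No gene of these lists differed by a log2 value of 1 or more. The lists were described by counts and medians, with no set test.

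Among 32 further genes of RNA granules and mitochondrial RNA processing, 1 rose and 31 did not pass, with a median of -0.0086 and a range of -0.17 to 0.34. The gene that rose was Hsd17b10, a dehydrogenase that is also a subunit of mitochondrial RNase P, the enzyme that frees tRNAs from the primary transcript. Its log2 means were 10.10 ± 0.05 with CHIR99021 and 9.76 ± 0.08 with XAV939 (SD, n = 3 each), a difference of 0.34 ± 0.06 (SE, limma adjusted p = 0.0041).

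Of 19 measured genes of nucleoids, mitochondrial DNA replication and transcription, none passed in either direction by limma, with 4 at an unadjusted p under 0.05, and the median was -0.043. The smallest p values were those of Mgme1, an exonuclease of mitochondrial DNA maintenance (-0.22 ± 0.06, SE, adjusted p = 0.0526), and Tefm, the elongation factor of Polrmt (0.19 ± 0.06, adjusted p = 0.105). Their unadjusted p values were 0.0052 and 0.0140. Mgme1 passed without XAV939 replicate 3 (-0.27, adjusted p = 0.0333).

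Of 24 genes of mitochondrial ribosome assembly and translation, 1 rose and 23 did not pass, with a median of 0.078. It was Mtif3, an initiation factor of mitochondrial translation, at 0.26 ± 0.07 (SE, limma adjusted p = 0.0373), and its call was lost when CHIR99021 replicate 2 or 3, or XAV939 replicate 1 or 2, was left out (adjusted p = 0.0808 to 0.127). None of 77 mitochondrial ribosomal protein genes passed by limma, with 6 at an unadjusted p under 0.05, and their median was -0.0069 within a range of -0.30 to 0.24. The smallest p values were those of Mrps21 (0.24 ± 0.07, SE, unadjusted p = 0.0055, adjusted p = 0.0548) and Mrps9 (0.15 ± 0.05, unadjusted p = 0.0123, adjusted p = 0.0961), both of the small subunit. Mrps21 passed without XAV939 replicate 1 (adjusted p = 0.0386).

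Among 10 measured regulators of mitochondrial biogenesis, the list that holds the PGC-1 coactivators, Nrf1 and the GABP subunits, Myc fell, as was known from earlier results, and the other 9 did not pass. Myc, a transcription factor that promotes growth and ribosome and mitochondrial biogenesis, had means of 8.52 ± 0.13 in CHIR99021 cells and 9.21 ± 0.03 in XAV939 cells (SD, n = 3 each), a difference of -0.68 ± 0.07 (SE, limma adjusted p = 1.05e-04).

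The list of RNA-binding relatives and an mRNA partner of GRSF1 had 7 measured genes, of which 2 fell and 5 did not pass, with a median of -0.059. Among all genes, 4.34% were lower and 9.65% passed in either direction. GRSF1 shares its type of RNA recognition motif with the hnRNP H/F proteins and the ESRP splicing factors. Esrp1, an epithelial splicing regulator, fell with a log2 difference of -0.78 ± 0.07 (SE, limma adjusted p = 3.56e-05), with means of 8.77 ± 0.11 in CHIR99021 cells and 9.54 ± 0.06 in XAV939 cells (SD, n = 3 each). Gpx4, a selenoprotein that removes lipid hydroperoxides and whose mRNA is bound by GRSF1 in mouse, had means of 11.28 ± 0.11 in CHIR99021 cells and 11.55 ± 0.02 in XAV939 cells (SD, n = 3 each). It fell by 0.27 on the log2 scale (limma adjusted p = 0.0195), and its call was lost when CHIR99021 replicate 1 or 2, or XAV939 replicate 2 or 3, was left out (adjusted p = 0.0510 to 0.0859).

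Transcripts of the mitochondrial genome itself, on which these proteins act, were measured for 2 of its 37 genes, a set put together after the array annotation was seen. Both were at the 99.9 percentile of level among all genes, and saturation of their signal was not tested. COX2, a subunit of cytochrome c oxidase, differed by 0.038 ± 0.056 (SE, limma adjusted p = 0.804), and ND3, a subunit of the respiratory NADH dehydrogenase, by -0.044 ± 0.051 (adjusted p = 0.737), and neither had an unadjusted p under 0.05. COX2 was at 12.66 ± 0.05 with CHIR99021 and 12.62 ± 0.06 with XAV939, and ND3 at 12.52 ± 0.04 in CHIR99021 cells and 12.57 ± 0.02 in XAV939 cells (SD, n = 3 each), and the treatments overlapped for both.

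**Figure D3:**
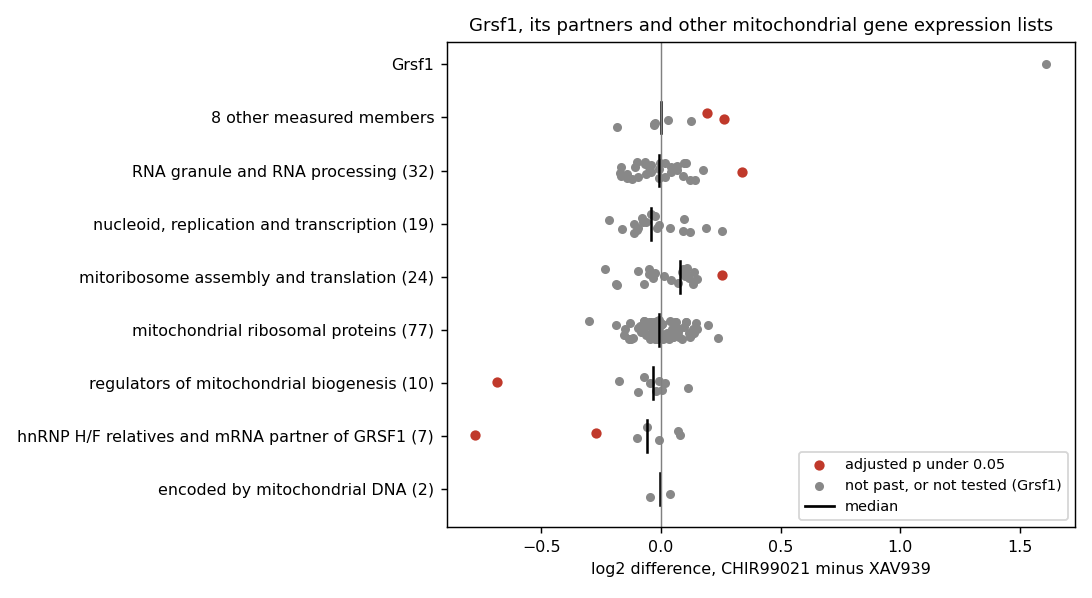
Log2 difference, CHIR99021 minus XAV939, of Grsf1, of the 8 other measured members and of the genes of each list (number measured in brackets). Each point is a gene, red where its limma adjusted p was under 0.05, and vertical bars are medians. Grsf1 is at 1.61, and the genes of the lists lie between -0.78 and 0.34.

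Genes around Grsf1 on chromosome 5 were compared to see whether the difference was shared along the chromosome. Of the 5 measured genes on either side, Mob1b, the next measured gene beyond the Grsf1 start and an adaptor of the Hippo pathway, rose by 0.35 ± 0.08 (SE, limma adjusted p = 0.0280). Its log2 values were 7.59, 7.58 and 7.58 with CHIR99021, against 7.07, 7.45 and 7.20 with XAV939. The XAV939 arrays were spread more widely than the CHIR99021 arrays, and the call was lost when any array other than XAV939 replicate 2 was left out (adjusted p = 0.0531 to 0.0974). Rufy3, a neuronal polarity gene that lies beyond the other end of Grsf1, differed by 0.18 ± 0.06 without overlap and did not pass (limma adjusted p = 0.133). The other neighbours did not pass. Ambn, Enam, Jchain and Utp3 on the Rufy3 side lay at -0.010 to 0.074. Dck, Slc4a4, Mkrn1-ps1 and Npffr2 on the Mob1b side lay at -0.10 to 0.059. Of these, Mkrn1-ps1 (-0.10) was lower with CHIR99021 without overlap. Among all genes, 9.65% passed in either direction, and the treatments did not overlap for 25.1%. Ambn, Enam, Jchain, Slc4a4 and Npffr2 had mean levels between 3.78 and 5.13, below the median of all probe sets.

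**Figure D4:**
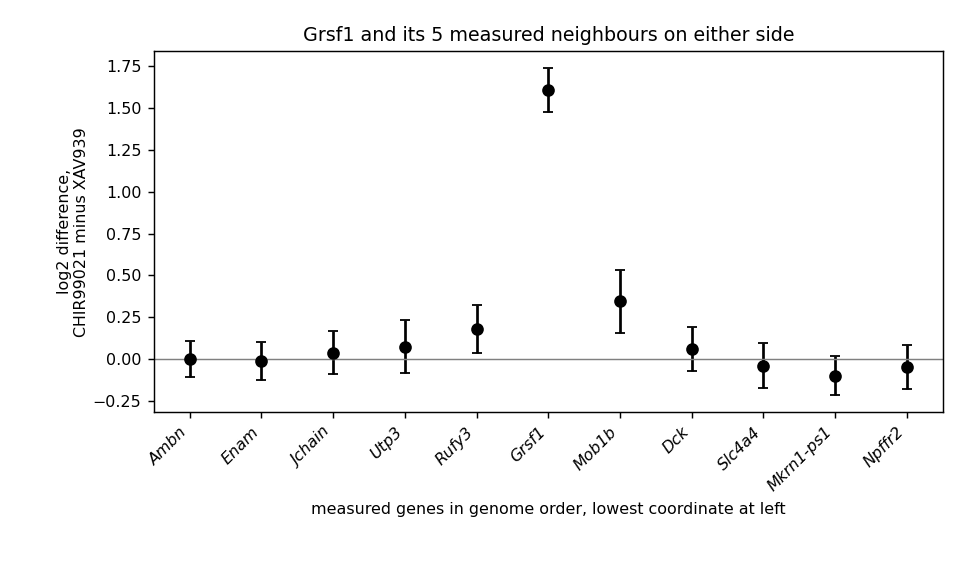
Log2 difference, CHIR99021 minus XAV939, of Grsf1 and the 5 measured genes on either side in genome order, with 95% intervals of the limma fit (bars). Grsf1 is at 1.61, Mob1b at 0.35, and the other genes lie between -0.10 and 0.18.

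The genes whose profile over the 6 arrays was nearest to that of Grsf1 were not members. By Euclidean distance between profiles centred on each gene's mean, these were Emp1, an epithelial membrane protein gene (0.191 log2 units), Dsc2, a desmosomal cadherin (0.194), 2210409E12Rik (0.203), Pmp22, of the same family as Emp1 (0.240), and Pglyrp1, a peptidoglycan recognition protein (0.242). Their log2 differences were 1.48, 1.50, 1.67, 1.68 and 1.75. The measure groups genes with a rise of about the same size, since the Grsf1 profile is mainly the step between the treatments. Among the partners the nearest was Fastk, at a distance of 1.66 and rank 893, followed by Fastkd1 at 1.74 and rank 1356.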

How the data were processed

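Total RNA was hybridised to 6 Affymetrix arrays of 1 colour, 3 per treatment, grouped by the sample titles. The deposited log2 values were made by the authors with RMA, per the submitters' processing notes. The RMA version is not given in the sources used here, nor is the build. RMA corrects background, quantile-normalises arrays and summarises probes, which compresses differences of weak genes. Levels were set only against the median over all probe sets, as a description. No detection call, scan date or batch was used. The number of arrays limits precision.

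Of 34760 probe sets, 21640 were assigned to 1 gene, 1321 to several and 11799 to none by the platform annotation. Each gene was represented by its single-gene probe set with the highest mean, giving 19937 genes. CHIR99021 minus XAV939 was fitted with limma 3.58.1 (lmFit, eBayes) in R 4.3.3 without filtering, with Benjamini-Hochberg adjustment over all genes and a threshold of 0.05. Exact permutation, which cannot go below 0.1 here, was not used. The procedure was tested on simulated data. Promoter windows are those of RefSeq (GRCm38.p6) and were found for all 10 members by symbol.

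Members and lists were chosen with earlier results of these data known. Named genes were all members; from each list up to 6 passing genes per direction (otherwise the 4 with the smallest p, or 2 where none passed); the 5 genes nearest to Grsf1 in profile; 5 measured neighbours on either side; and Axin2. Alternatives were other scalings, a filter at the 25th percentile of level, averaged or all probe sets, other moderation, array weights, a replicate block, a threshold of 0.01 and left-out arrays.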

Additional observations from a re-analysis of the deposited data

How the results depend on the processing

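The Grsf1 difference lay between 1.56 and 1.66 in all 13 alternatives run for it, with 1.61 with a replicate block. The count of partners that passed in either direction was 2, both higher. It fell to 0 when all probe sets were tested, with a replicate block and at an adjusted p of 0.01. It was 1 with trended robust moderation (Fastk, higher) and with ordinary least squares (Fastkd1, higher). Without XAV939 replicate 1 and CHIR99021 replicate 3 together, Fastk and Fastkd1 did not pass. The 1 partner that passed there was Fastkd2, which was lower (-0.28, limma adjusted p = 0.0183). With 1 array left out the count was 0 to 3. The 3 that passed without XAV939 replicate 1 were Fastk and Fastkd1, higher, and Fastkd2, lower (-0.27, limma adjusted p = 0.0156). The count of list genes that passed was 5, against 8 above the 25th percentile of level, 3 with all probe sets, 3 with ordinary least squares, 11 with array weights, 10 without XAV939 replicate 1 and CHIR99021 replicate 3, 3 at an adjusted p of 0.01 and 3 to 7 with 1 array left out. The share of list genes that passed was below that of all genes in each of the 16 alternatives at an adjusted p of 0.05. The count over all genes was 1924, with 639 by ordinary least squares, 1118 at an adjusted p of 0.01, 1254 to 2247 with 1 array left out and 2325 without XAV939 replicate 1 and CHIR99021 replicate 3. Of the rises, Fastk lost its call in 9 and Fastkd1 in 10 of 17 alternatives, while Fastkd2 passed in 3, with -0.23 under array weights. Some genes that did not pass changed sign. Slirp was at -0.034 with array weights, -0.12 without XAV939 replicate 1 and CHIR99021 replicate 3 and -0.15 to 0.13 with 1 array left out. Tfam ranged from -0.17 to 0.054 and Lrpprc from -0.081 to 0.015 with 1 array left out. With any 1 array or both XAV939 replicate 1 and CHIR99021 replicate 3 left out, COX2 ranged from -0.020 to 0.067, Enam from -0.037 to 0.012, Jchain from -0.023 to 0.072, Dck from -0.00071 to 0.098, Slc4a4 from -0.099 to 0.0022 and Ambn from -0.0084 to 0.017. Ambn was at -0.0015 after centring and -0.0043 after further quantile normalisation. The cause was not tested in any of these cases. Same-numbered arrays shared only a number, with correlations of their deviations from the treatment means of -0.096, 0.060 and -0.14, and the replicate block left 1578 genes called. In data simulated at this size over 19937 genes, 39.6% of planted log2 differences of 0.3 and 80.4% of those of 0.5 were called. Over 5 simulations, 250 differences of each size (0.3, 0.5, 1 and 1.5) were planted, against 98685 genes without one. Planted differences were thus rarer than the calls on these arrays, where 9.65% of all genes passed, so these shares need not hold there.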
